A study of Arabidopsis thaliana with 6 samples.

Results

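Flavonol and anthocyanin synthesis genes were followed in whole Arabidopsis thaliana seedlings that carry atrx-1, a mutant allele of ATRX. The genes were chosen by their identifiers, as 8 enzymes and 2 transcription factors, 10 of the 23640 features in the table of counts, and all 10 were present. RNA came from 14-day-old seedlings of the Col ecotype grown in vitro. Of the 6 libraries, 3 were from plants with the atrx-1 mutant allele and 3 from wild-type (WT) plants. ATRX belongs to the SNF2 chromatin remodelers and helps to place the histone variant H3.3. No other allele was studied. The total RNA had been depleted of ribosomal RNA, so counts were not limited to polyadenylated transcripts. No label says that the replicates were separate cultures, so p-values measure the spread between these libraries, which may be technical.

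Flavonoids are phenolic pigments and sunscreens made from phenylalanine. An early set of enzymes makes dihydroflavonols, from which the path divides: flavonol synthase leads to the colourless, ultraviolet-absorbing flavonols, and dihydroflavonol reductase leads to the red and purple anthocyanins. In Arabidopsis seedlings the flavonol genes are switched on by MYB factors related to MYB12, whereas the anthocyanin genes need complexes of a MYB of the PAP type, a bHLH protein and the WD-repeat protein TTG1. Light, sucrose and cold raise the pathway.

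Total counts per library were between 2887834 and 14001726 in atrx-1 and between 936243 and 3624088 in WT, and chloroplast genes took between 55.5% and 61.8% of them. Levels are given in CPM, gene counts per common library size with TMM factors. In WT library 2, the shallowest, 1 read was worth 1.09 CPM. ATRX itself had 1.24, 0.721 and 1.91 CPM in atrx-1 libraries 1, 2 and 3, against 4.82, 5.46 and 5.86 CPM in WT libraries 1, 2 and 3 (log2 fold change -2.09 ± 0.38, SE; edgeR adjusted p = 0.0536, and 0.0461 with the length trend described next removed). Among nuclear genes, expression relative to each gene's mean over the 6 libraries also moved with gene length. Per doubling of length, these relative log2 levels changed by 0.15 to 0.16 in atrx-1 libraries and by -0.23 to -0.06 in WT libraries. Marker genes of green tissue summed to between 14059 and 14608 CPM in atrx-1 and between 9586 and 16272 CPM in WT, with all 4 genes detected. The 5 root markers, all detected, summed to between 15.9 and 19.8 CPM in atrx-1 and between 21.9 and 24.7 CPM in WT. The 4 seed markers summed to between 14.7 and 38.9 CPM in atrx-1 and between 37.1 and 126 CPM in WT, and SESA4 had counts in WT library 1 only. Of 3 floral markers AP3 was at 0 in every library and the list summed to at most 2.19 CPM.

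Among the 10 genes the clearest difference between genotypes lay at flavonol synthase. FLS1 was lower in every atrx-1 library than in every WT library, at 0.558 of the WT mean, and it did not pass the threshold after adjustment over all features. CHS and F3H, the most abundant members per length, overlapped between genotypes, with atrx-1 means at 0.961 and 0.855 of the WT means. DFR and LDOX, the anthocyanin enzymes, varied several-fold between libraries of the same genotype. Both MYB regulators were close to the limit of detection.

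The low-count filter kept 7 of the 10 genes for the test and left out CYP75B1, MYB12 and MYB111. In edgeR's quasi-likelihood test, 0 of these 7 had an adjusted p under 0.05, against 0.116% of all 13819 features tested, all of them lower in atrx-1. DESeq2 also called 0 members, but it gave no adjusted p for CHI, FLS1, DFR and LDOX, which it therefore could not call. Nor could it call CYP75B1, MYB12 and MYB111, whose counts were lower still. In edgeR 1 member, FLS1, had an unadjusted p under 0.05 (1 of 7), where 19.5% of all tested features did. FLS1 was likewise the 1 member whose groups did not overlap, against 23.6% of tested features (11.4% with atrx-1 lower). Of the 7, 1 had a higher and 6 a lower value in atrx-1, with a median log2 fold change of -0.29, while the median over all tested features was 0.012. With each library's trend on length removed the same split was found and the median was -0.10. The seedlings were sequenced whole, so that fewer cells of a type and less RNA per cell cannot be told apart.

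**Figure D1:**
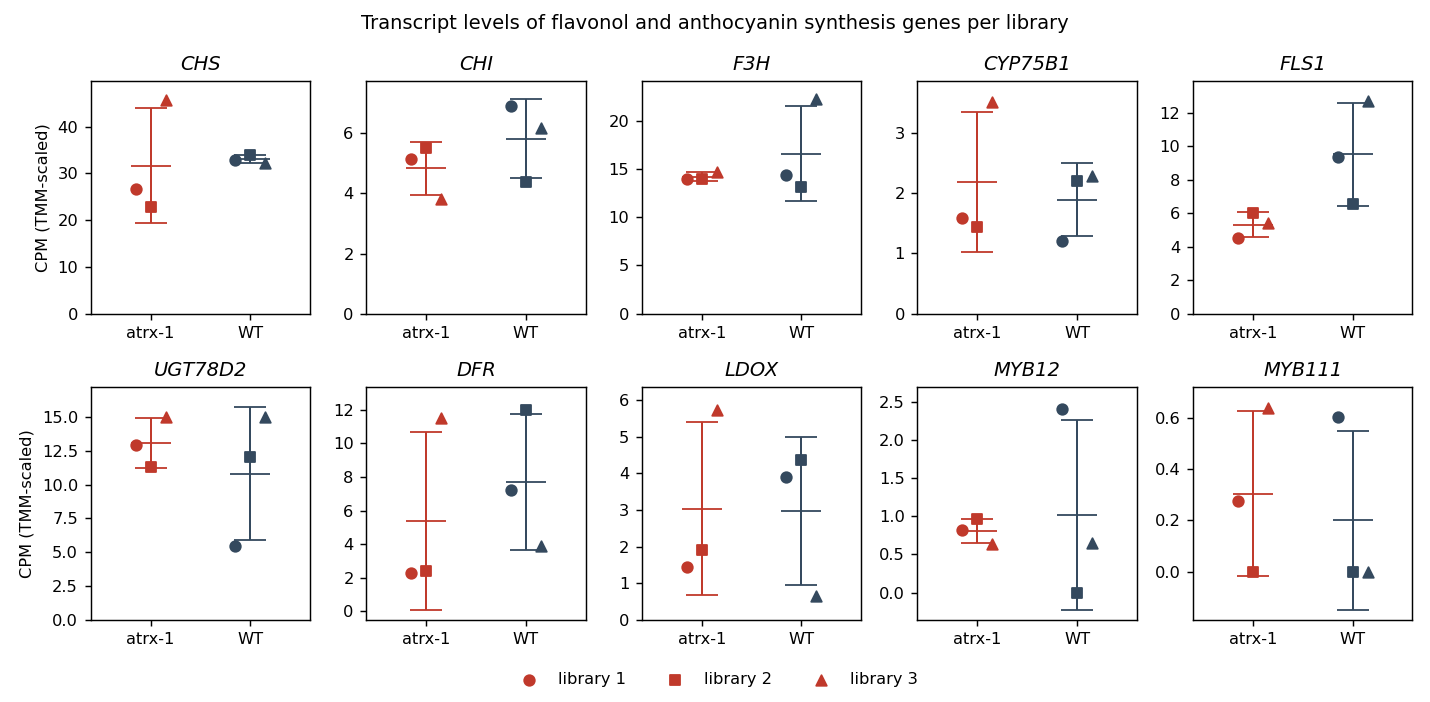
Level of each gene in CPM (TMM-scaled, vertical axis) in the 3 atrx-1 and 3 WT libraries. Symbols give the library number, horizontal lines the mean and bars the SD. FLS1 is the 1 gene in which all atrx-1 libraries (4.53 to 6.01 CPM) lie below all WT libraries (6.56 to 12.7 CPM).

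Per length, CHS and F3H had the highest mean levels in both genotypes. In atrx-1 the order of mean levels was CHS at 21.3 ± 8.19 CPM per kb, F3H at 9.89 ± 0.312, UGT78D2 at 8.58 ± 1.22, CHI at 5.2 ± 0.959, FLS1 at 4.0 ± 0.56, DFR at 3.96 ± 3.89, LDOX at 2.42 ± 1.88 and CYP75B1 at 1.19 ± 0.63 CPM per kb (SD, n = 3). In WT it was CHS at 22.1 ± 0.553 CPM per kb, F3H at 11.6 ± 3.41, FLS1 at 7.17 ± 2.32, UGT78D2 at 7.1 ± 3.22, CHI at 6.27 ± 1.41, DFR at 5.68 ± 3.0, LDOX at 2.38 ± 1.62 and CYP75B1 at 1.03 ± 0.325 CPM per kb (SD, n = 3). CHS stood above F3H by more than the spread in both genotypes. Below CHS, the SD ranges of all neighbours in the order overlapped in WT, and in atrx-1 all did but UGT78D2 and CHI. MYB12 and MYB111 came last in both genotypes, at 0.556 ± 0.112 and 0.232 ± 0.244 CPM per kb in atrx-1 and 0.702 ± 0.857 and 0.153 ± 0.265 CPM per kb in WT (SD, n = 3).

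The members were compared in the DNA before their coding regions, in the RefSeq assembly TAIR10.1. In the 500 bases before the start codon, 4 words bound by MYB factors (ACCTACC and ACCTAAC as well as ACCAACC and ACCAAAC, on both strands) were searched. At least 1 word occurred in 6 of the 10 members, against 25.8% of 27443 protein-coding genes. The G-box CACGTG, a word bound by bZIP and bHLH factors such as HY5, occurred in 5 of 10 members, against 9.34% of genes. CHS is not among these 5, but has 1 G-box beyond this window, within the 250 bases before its annotated transcript start. The stretches below show a MYB word of each of the 6 genes in capitals, in the direction of the gene. In F3H and in this DFR stretch the word lies on the other strand, so that the capitals are its reverse complement. The stretches are at chr5:4488607-4488636 for CHS, chr3:20431498-20431527 for CHI, chr3:19025255-19025284 for F3H, chr5:2803805-2803834 for FLS1, chr5:5609518-5609547 for UGT78D2 and chr5:17166015-17166044 for DFR. In the TAIR10.1 annotation the words of CHS, CHI, F3H and UGT78D2 lie in the 5′ UTR, that of FLS1 lies upstream of the transcript, and that of DFR crosses the transcript start. This placement depends on the annotation: by the gene coordinates printed below, only the word of F3H lies within its gene. CHI, UGT78D2 and DFR are on the minus strand and the others on the plus strand.
CHS: ccgtccatctaACCTACCacactctcatct
CHI: taactattgctACCTACCcttctctcttct
F3H: agtagtaccgtGGTAGGTagctagcgacct
FLS1: caaaacttggtACCAAACtcgtgagtgacg
UGT78D2: aagagatcggtACCAACCacgaaacacgag
DFR: cgtgcttctccGGTTGGTactcacgtgacc
CHS, CHI and F3H, which precede the division of the path, share the word ACCTACC, and FLS1 has another form of it. A match of letters does not show that a factor binds there.

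The 250 bases before the annotated transcript start are given for FLS1, the member with non-overlapping groups, and for DFR and LDOX, the tested members that varied most between libraries of a genotype. They lie at chr5:2803583-2803832 (plus strand), chr5:17166033-17166282 (minus strand) and chr4:12006210-12006459 (minus strand) of TAIR10.1, and capitals mark the MYB words and the G-box named above.
FLS1: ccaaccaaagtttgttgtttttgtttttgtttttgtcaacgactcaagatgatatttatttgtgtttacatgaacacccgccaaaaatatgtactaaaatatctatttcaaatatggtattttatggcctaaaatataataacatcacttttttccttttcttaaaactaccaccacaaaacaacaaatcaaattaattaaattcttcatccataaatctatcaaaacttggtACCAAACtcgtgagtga
DFR: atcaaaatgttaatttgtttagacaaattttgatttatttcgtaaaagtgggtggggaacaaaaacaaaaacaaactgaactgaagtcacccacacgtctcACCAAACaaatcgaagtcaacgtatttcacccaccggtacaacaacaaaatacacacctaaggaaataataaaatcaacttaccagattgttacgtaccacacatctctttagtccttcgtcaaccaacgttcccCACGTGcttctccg
LDOX: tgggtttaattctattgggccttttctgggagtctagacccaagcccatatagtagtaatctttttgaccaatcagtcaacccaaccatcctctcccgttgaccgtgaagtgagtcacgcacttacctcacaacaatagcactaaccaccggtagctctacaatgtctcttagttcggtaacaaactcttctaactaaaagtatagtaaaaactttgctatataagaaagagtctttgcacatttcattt
FLS1 holds 1 MYB word close to its TAIR10.1 transcript start and no G-box, and DFR holds 1 of each. Neither kind is present in these letters of LDOX, whose G-box lies further from its transcript start. Whether reads of the members could be assigned to 1 place was checked with windows of 50 bases along their exons. No window of CHS, CHI, F3H, CYP75B1, FLS1, MYB12 or MYB111 occurred elsewhere in TAIR10.1, and 0.0657%, 1.22% and 3.99% of the windows of UGT78D2, DFR and LDOX did.

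CHS (AT5G13930, TAIR10 chromosome 5, 4488688 to 4490264, protein-coding) encodes chalcone synthase, which joins a coumaroyl unit with malonyl units and is the entry point of the pathway. It had 26.6, 22.8 and 45.6 CPM in atrx-1 libraries 1, 2 and 3, against 32.8, 33.9 and 32.3 CPM in WT libraries 1, 2 and 3. The WT libraries were almost equal, and the atrx-1 libraries lay on both sides of them, with library 3 highest of all. This gave a log2 fold change of -0.08 ± 0.25 (SE, 95% interval -0.56 to 0.41; edgeR adjusted p = 0.908). Without atrx-1 library 3 it was -0.40 ± 0.21 (SE), and without atrx-1 library 2 it was 0.12 ± 0.27 (SE).

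CHI (AT3G55120, chromosome 3, 20430114 to 20431470) encodes chalcone isomerase, which closes the ring of naringenin chalcone. Its levels were 5.15, 5.53 and 3.83 CPM in atrx-1 libraries 1, 2 and 3, against 6.92, 4.37 and 6.19 CPM in WT libraries 1, 2 and 3. The groups overlapped through WT library 2, where CHI had 4 reads. CHI was at a log2 fold change of -0.32 ± 0.29 (SE; edgeR adjusted p = 0.573), and -0.08 ± 0.29 (SE) with the length trend removed, CHI being the shortest member at 930 nt.

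F3H (AT3G51240, chromosome 3, 19025192 to 19026872) encodes flavanone 3-hydroxylase, the enzyme that makes dihydroflavonols. It was the most even gene among atrx-1 libraries, with 13.9, 13.9 and 14.7 CPM, against 14.4, 13.1 and 22.2 CPM in WT libraries 1, 2 and 3. WT library 3 stood above the other 5 libraries, which spanned 13.1 to 14.7 CPM. F3H was at a log2 fold change of -0.29 ± 0.23 (SE; edgeR adjusted p = 0.516), and -0.47 ± 0.22 (SE; edgeR adjusted p = 0.235) without WT library 1. Without WT library 3 it was 0.00 ± 0.22 (SE; edgeR adjusted p = 0.997). F3H overlaps an opposite-strand gene, AT3G51238, over most of its length, and CHS touches AT5G13940 at its end. Both of these neighbours were listed with 0 counts in total. No source used here says whether strand was used in counting, so reads of each pair may not be separable.

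On the flavonol side, FLS1 (AT5G08640, chromosome 5, 2803957 to 2805606) encodes the main flavonol synthase of Arabidopsis. It had 4.53, 6.01 and 5.42 CPM in atrx-1 libraries 1, 2 and 3, from 66, 25 and 17 reads, against 9.33, 6.56 and 12.7 CPM in WT libraries 1, 2 and 3, from 31, 6 and 39 reads. All atrx-1 libraries of this gene, whose promoter is printed above, were low and close together, and the WT libraries were higher and further apart. The gap between the groups was narrow, since WT library 2 at 6.56 CPM (exact Poisson 95% interval 2.41 to 14.3 CPM) came next to atrx-1 library 2 at 6.01 CPM (3.89 to 8.87 CPM). These intervals cover counting error only. FLS1 was at a log2 fold change of -0.98 ± 0.28 (SE, 95% interval -1.53 to -0.43), with an unadjusted p of 0.00432 and an edgeR adjusted p of 0.0962.

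The direction at FLS1 was kept in all 20 alternative fits, with log2 fold changes between -1.12 and -0.68. The adjusted p was at least 0.0737 in each that gave one. Since the groups of FLS1 did not overlap, the fits that left out 1 library could hardly have reversed this direction. With the length trend removed the log2 fold change was -0.93 ± 0.28 (SE). FLS1 is 1329 nt long, and the median length of tested nuclear genes was 1556 nt. The root marker sums given above were lower in all atrx-1 libraries too. Of the 5 genes, EXPA7 and CASP1 were lower in every atrx-1 library, COBL9 and PIP2;4 overlapped, and SCR was higher in every atrx-1 library. Their part in the FLS1 difference was not tested.

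**Figure D2:**
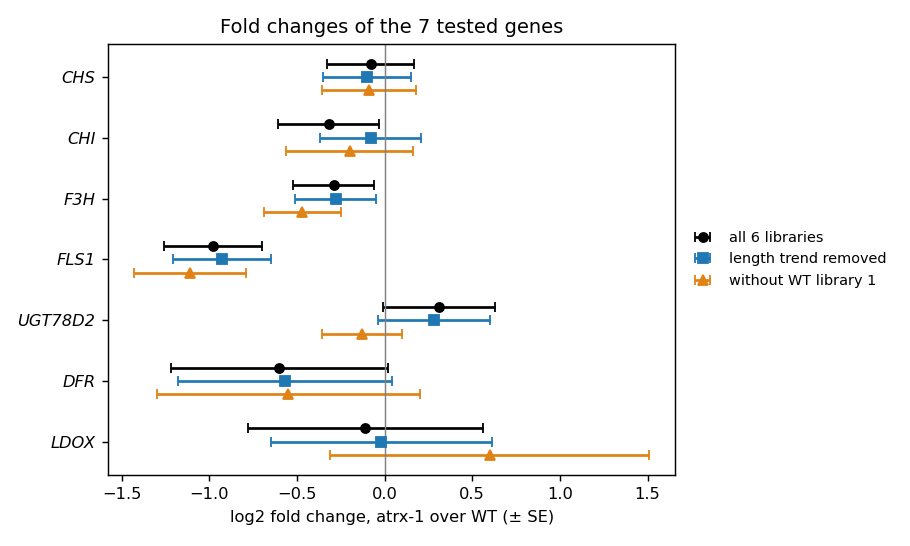
Log2 fold change of atrx-1 over WT (horizontal axis, bars are SE) for the 7 tested genes with all 6 libraries, with each library's trend on gene length removed, and without WT library 1. FLS1 stays between -1.11 and -0.93, while UGT78D2 and LDOX change sign without WT library 1.

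UGT78D2 (AT5G17050, chromosome 5, 5607788 to 5609492), a glucosyltransferase that attaches glucose to flavonols and anthocyanidins, had 12.9, 11.3 and 15 CPM in atrx-1 libraries 1, 2 and 3, against 5.42, 12.0 and 15 CPM in WT libraries 1, 2 and 3. A single library, WT library 1, stood apart, and the other 5 lay between 11.3 and 15 CPM. UGT78D2 was at a log2 fold change of 0.31 ± 0.32 (SE; edgeR adjusted p = 0.632) with that library and -0.13 ± 0.23 (SE; edgeR adjusted p = 0.809) without it. CYP75B1 (AT5G07990, chromosome 5, 2560394 to 2563109), the cytochrome P450 that adds a hydroxyl group on the way to quercetin-type flavonols, was low, at 1.58, 1.44 and 3.51 CPM in atrx-1 libraries 1, 2 and 3, against 1.2, 2.19 and 2.28 CPM in WT libraries 1, 2 and 3. Its groups overlapped, and with no filter on low counts its log2 fold change was 0.16 ± 0.57 (SE; edgeR adjusted p = 0.921).

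The anthocyanin enzymes differed between libraries more than between genotypes. DFR (AT5G42800, chromosome 5, 17164141 to 17165918) encodes dihydroflavonol reductase, the first step committed to anthocyanins. It had 2.27, 2.4 and 11.5 CPM in atrx-1 libraries 1, 2 and 3, against 7.22, 12.0 and 3.91 CPM in WT libraries 1, 2 and 3. High values occurred in both genotypes, in atrx-1 library 3 and WT library 2, and so did low ones. DFR was at a log2 fold change of -0.60 ± 0.62 (SE, 95% interval -1.82 to 0.61; edgeR adjusted p = 0.637). It was -1.53 ± 0.44 (SE; edgeR adjusted p = 0.136) without atrx-1 library 3 and -0.02 ± 0.59 (SE) without atrx-1 library 1.

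LDOX (AT4G22880, chromosome 4, 12004768 to 12006209) encodes the dioxygenase that turns leucoanthocyanidins into anthocyanidins. Its 1.44, 1.92 and 5.74 CPM in atrx-1 libraries 1, 2 and 3 stood against 3.91, 4.37 and 0.652 CPM in WT libraries 1, 2 and 3. LDOX was high in the same libraries as DFR: atrx-1 library 3 and WT libraries 1 and 2. LDOX was at a log2 fold change of -0.11 ± 0.67 (SE; edgeR adjusted p = 0.958), and at 0.60 ± 0.91 (SE) without WT library 1. TT19, the glutathione S-transferase that carries anthocyanins towards the vacuole, was high in the same 3 libraries, with 1.3, 1.2 and 6.06 CPM in atrx-1 libraries 1, 2 and 3, against 4.21, 5.46 and 2.28 CPM in WT libraries 1, 2 and 3. PAP2, a MYB activator of anthocyanin genes, had 5, 0 and 11 reads in atrx-1 libraries 1, 2 and 3 and 13, 1 and 2 reads in WT libraries 1, 2 and 3. In WT libraries 2 and 3 TT19 had 5 and 7 reads. TT19 and PAP2 were set beside DFR and LDOX after their values were seen.

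**Figure D3:**
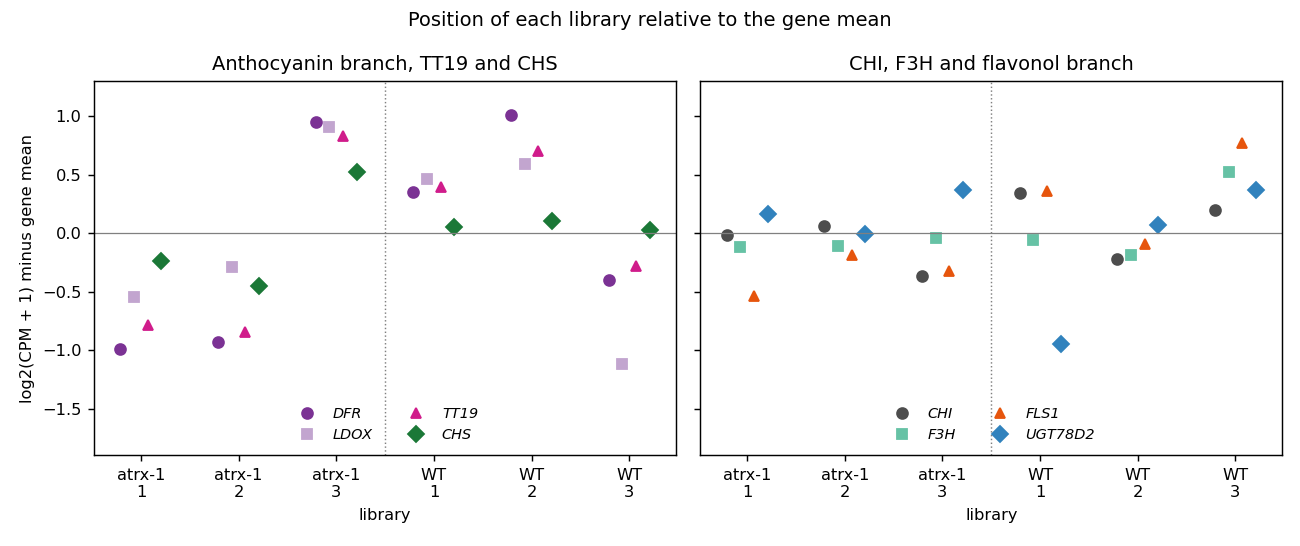
Level of each gene in each library relative to its mean over the 6 libraries (vertical axis, difference on the log2(CPM + 1) scale), atrx-1 libraries left of WT libraries, with DFR, LDOX, TT19 and CHS in the left panel and CHI, F3H, FLS1 and UGT78D2 in the right one. DFR, LDOX and TT19 lie above their means in atrx-1 library 3 (0.83 to 0.95) and WT libraries 1 and 2, and below in atrx-1 libraries 1 and 2 and WT library 3, whereas FLS1 lies below its mean in all atrx-1 libraries (-0.54 to -0.19) and slightly below in WT library 2 (-0.09).

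The balance between both branches also varied between libraries of a genotype. The CPM ratio of DFR to FLS1 was 0.5, 0.4 and 2.12 in atrx-1 libraries 1, 2 and 3, against 0.774, 1.83 and 0.308 in WT libraries 1, 2 and 3, so the groups overlapped. The ratio of FLS1 to CHS was 0.17, 0.263 and 0.119 in atrx-1 libraries 1, 2 and 3, against 0.284, 0.194 and 0.394 in WT libraries 1, 2 and 3. These ranges also overlapped, through atrx-1 library 2 and WT library 2.

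MYB12 (AT2G47460, chromosome 2, 19476337 to 19479478) and MYB111 (AT5G49330, chromosome 5, 19998952 to 20001378) encode related MYB activators of CHS, CHI, F3H and FLS1. MYB12 had 12, 4 and 2 reads in atrx-1 libraries 1, 2 and 3, against 8, 0 and 2 reads in WT libraries 1, 2 and 3. In CPM these were 0.824, 0.961 and 0.638 in atrx-1, against 2.41, 0 and 0.652 in WT. WT library 1 was the highest, and the 0 of WT library 2 allows up to 3.28 CPM (3 counts). MYB111 had 4, 0 and 2 reads in atrx-1 libraries and 2, 0 and 0 reads in WT libraries, so no difference between genotypes was detectable at this depth. With no filter on low counts the log2 fold changes were -0.63 ± 0.72 (SE; edgeR adjusted p = 0.722) for MYB12 and 0.07 ± 1.34 (SE; edgeR adjusted p = 0.989) for MYB111.

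Genes around the pathway were examined in 5 lists of 55 genes, of which 51 were in the table and 33 were tested. In edgeR 0 of the 33 passed the threshold, and 4 had an unadjusted p under 0.05, against 19.5% of all tested features. DESeq2 also called 0 genes of the lists, but it gave no adjusted p for FLS1, with 184 reads in total. List genes with lower counts, such as FLS3, SPL9 and RUP1 (121, 95 and 102 reads), therefore could not be called there. In edgeR values were higher in 18 and lower in 15, with a median log2 fold change of 0.03. With the length trend removed 16 were higher and 16 lower. The general phenylpropanoid enzymes, which supply coumaroyl units to lignin as well as to flavonoids, had 6 of 7 tested members higher in atrx-1 (median 0.28). PAL2, a phenylalanine ammonia-lyase, had 81.8, 80.0 and 58.4 CPM in atrx-1 libraries 1, 2 and 3, against 34.3, 60.1 and 58.6 CPM in WT libraries 1, 2 and 3 (log2 fold change 0.55 ± 0.24, SE; edgeR adjusted p = 0.236). Its relative PAL1 did not overlap between groups, at 65.1, 61.8 and 56.5 CPM in atrx-1 against 44.5, 47.0 and 51.1 CPM in WT (0.36 ± 0.18, SE; edgeR adjusted p = 0.287). The median length of this list was 2319 nt, and with the length trend removed the median of the list was 0.04, PAL1 was at 0.08 ± 0.18 (SE) and PAL2 at 0.28 ± 0.24 (SE). The ligases 4CL2 and 4CL1, which activate coumarate, were at 0.40 ± 0.31 and 0.18 ± 0.26 (SE), and C4H, the hydroxylase between both steps, named as the 1 lower member after its value was seen, was at -0.08 ± 0.20 (SE).

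Further flavonoid enzymes and transporters had 3 of 8 tested members higher and 5 lower (median log2 fold change -0.15), and with the length trend removed 1 was higher and 7 lower (median -0.23). FLS3, a relative of FLS1, had 3.02, 2.88 and 4.15 CPM in atrx-1 libraries 1, 2 and 3, against 9.03, 6.56 and 5.21 CPM in WT libraries 1, 2 and 3. The atrx-1 libraries were all below the WT libraries, as for FLS1, but at -1.12 ± 0.32 (SE, log2) FLS3 did not pass (edgeR adjusted p = 0.0963). Without WT library 1 it was -0.79 ± 0.39 (SE; edgeR adjusted p = 0.263). CHIL, a chalcone isomerase-like protein that helps CHS, was at -0.48 ± 0.23 (SE; edgeR adjusted p = 0.273), TT19 at -0.69 ± 0.62 (SE), and OMT1, a methyltransferase acting on quercetin and lignin precursors, at 0.18 ± 0.20 (SE). Some untested genes were picked out after their counts were seen. The modifying enzymes of anthocyanins UGT75C1, UGT79B1, 5MAT, 3AT1 and 3AT2 had 31, 17, 16, 8 and 8 reads in total and were not tested. Of genes known from seed coat tannins, the transporter TT12 had 1 read, the laccase TT10 had 3 and the proton pump AHA10 had 21 over the 6 libraries.

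Of the activators 5 were tested, 2 higher and 3 lower (median log2 fold change -0.03, and 0.05 with the length trend removed). HY5, the light-signalling bZIP factor, was at -0.44 ± 0.35 (SE, and -0.18 with the length trend removed), its relative HYH at -0.39 ± 0.27 (SE, but 0.05 with the length trend removed), TTG1 at 0.21 ± 0.26 (SE) and the B-box protein BBX21 at 0.14 ± 0.21 (SE). The edgeR adjusted p of these 4 was at least 0.47. MYB11, the relative of MYB12 and MYB111, had 0 reads in all libraries, and the bHLH factor TT8, also picked out after its counts were seen, had 3, all in atrx-1 library 3.

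The repressor list had 4 of 9 tested members higher and 5 lower (median log2 fold change -0.03, and 0.01 with the length trend removed). SPL9, a developmental timing factor that in Arabidopsis interferes with the anthocyanin complex at DFR, had 4.05, 2.88 and 4.47 CPM in atrx-1 libraries 1, 2 and 3, against 0.903, 2.19 and 1.63 CPM in WT libraries 1, 2 and 3. All atrx-1 libraries lay above all WT libraries, and WT counts were 3, 2 and 5 reads. The log2 fold change was 1.45 ± 0.44 (SE; edgeR adjusted p = 0.107), and 1.43 ± 0.44 (SE) with the length trend removed. MYBL2, a small MYB that restrains anthocyanins, was at 0.35 ± 0.22 (SE), the nitrogen-responsive LBD38 at -0.47 ± 0.32 (SE) and LBD37 at -0.17 ± 0.20 (SE), each with an edgeR adjusted p of at least 0.397.

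Of 4 genes of ultraviolet-B and light signalling, 3 had higher values and 1 lower (median log2 fold change 0.23), and with the length trend removed 2 were higher and 2 lower (median 0.08). RUP1, a negative regulator of the photoreceptor UVR8, had 2.81, 4.08 and 1.91 CPM in atrx-1 libraries 1, 2 and 3, against 4.21, 8.74 and 5.21 CPM in WT libraries 1, 2 and 3, which did not overlap (log2 fold change -0.85 ± 0.37, SE; edgeR adjusted p = 0.233). UVR8 was even in atrx-1, with 24.3, 24.3 and 23.3 CPM, and spread in WT, with 25.3, 16.4 and 8.8 CPM in libraries 1, 2 and 3 (0.50 ± 0.30, SE; edgeR adjusted p = 0.383). UVR8 was the 1 gene of the lists to pass in any fit, with 1.14 ± 0.24 (SE; edgeR adjusted p = 0.0334) without WT library 1. In that fit 378 of the 14487 features tested passed. Without WT library 1 and with the length trend also removed, 0 genes of the lists passed. With all 6 libraries and the length trend removed, UVR8 was at 0.30 ± 0.29 (SE). RUP2 was at 0.34 ± 0.43 (SE) and COP1, the ubiquitin ligase that works with UVR8, at 0.12 ± 0.21 (SE), or at -0.13 ± 0.22 (SE) with the length trend removed.

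**Figure D4:**
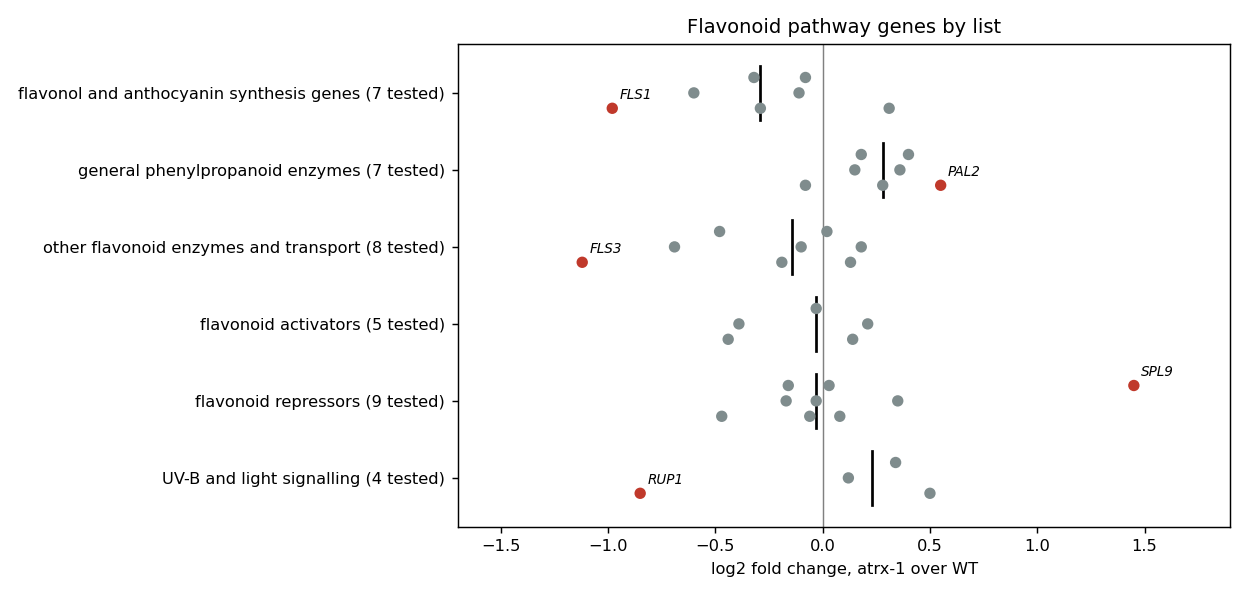
Log2 fold change of atrx-1 over WT (horizontal axis) for every tested gene of the pathway, 1 point a gene, with the vertical bar at the median of each list. Red points have an unadjusted p under 0.05 and are named (FLS1, PAL2, FLS3, SPL9 and RUP1), and no point passes the threshold after adjustment over all features.

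FLS1 was at -0.75 on the log2 scale in the authors' deposited table (p = 0.0101), with its adjusted p left blank. The authors' deposited table gave CHS -0.06, CHI -0.14, F3H -0.36, CYP75B1 -0.10, DFR -0.26, LDOX 0.11, MYB12 0.14 and MYB111 0.08 on the log2 scale, with p-values of at least 0.147. For MYB12 and CYP75B1 the fit with no filter on low counts gave the opposite sign, -0.63 and 0.16. LDOX also had the opposite sign, -0.11, in the fit to all 6 libraries. In the authors' deposited table UGT78D2 was at -0.09, where the fit to all 6 libraries gave 0.31 and the fit without WT library 1 gave -0.13. Across nuclear genes, which are not independent replicates, the authors' deposited fold changes had a Pearson correlation of 0.862 with a DESeq2 fit to all 6 libraries and of 0.989 with a DESeq2 fit without WT library 1. Leaving out any other library gave between 0.659 and 0.856. No source used here says which libraries entered the authors' comparison, or with which settings its fold changes were computed. The sizes of the deposited fold changes may therefore not compare directly with those of edgeR. UVR8, which passed here only without WT library 1 and with the length trend kept, was at 0.81 in the authors' deposited table, with an adjusted p of 0.0417.

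The genes whose levels were most like those of CHS over the 6 libraries were AT4G18970, RALFL34, AT1G30320, AT5G01800 and AT5G21020. Their Pearson correlations with CHS, on the log2(CPM + 1) scale, were 0.992, 0.974, 0.968, 0.96 and 0.958, the 5 highest among 6891 nuclear features ranked. All 5 shared with CHS the maximum in atrx-1 library 3, and the order rests on 6 libraries of unequal depth.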

How the data were processed

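RNA was sequenced from 3 atrx-1 and 3 WT libraries, grouped by the labels' titles. The submitters' processing notes name TopHat2 2.0.14, Bowtie2 2.1.0 and HTSeq 0.6.1, and also CASAVA 1.8.2, DESeq and DESeq2 1.6.3, with the build TAIR10 and no roles. The authors deposited raw read counts per gene, which were the input of every test. They also deposited a normalized signal (counts divided by 1 size factor per library) and that signal per kb, whose ratio gave gene lengths. The authors' deposited log2 fold changes, p-values and adjusted p-values are printed only where named. Every per-sample column was mapped to a sample.

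Counts were tested with edgeR 4.0.16 in R 4.3.3: TMM scaling, low counts removed by filterByExpr (at least 10 counts, 15 in total), then glmQLFit and glmQLFTest on genotype alone. Adjustment was by Benjamini-Hochberg over the 13819 features kept, with a threshold of 0.05. Standard errors came from the F statistic, and intervals called 95% are 1.96 SE on either side. They are narrower than the F test implies: for PAL1 the interval was 0.01 to 0.71, although its unadjusted edgeR p was 0.0652. Total counts set the precision: 3 counts, the limit a count of 0 allows, are worth between 0.206 and 3.28 CPM. Alternatives were DESeq2 1.42.0, RLE scaling, nuclear features only, no filter, a stricter filter, removal of each library's loess trend on length (span 0.5), a replicate block and leaving out each library. The fits were tested on simulated data. The members and lists were chosen with earlier results of these data known. Named were all members and, of each list, the tested genes with the smallest p, up to 4. Pathway genes named outside this rule are said to be so in the text. Motifs and promoter letters come from RefSeq TAIR10.1, whose gene starts differ from those of the table, and coordinates of genes are the table's, where CHI and DFR are named CHI1 and DFRA.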

Additional observations from a re-analysis of the deposited data

How the results depend on the processing

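The count of 0 members past the threshold was the same in all 20 alternative fits. DESeq2 gave no adjusted p for CHI, FLS1, DFR and LDOX, so these could not be called there. Nor could CYP75B1, MYB12 and MYB111, whose counts were lower still. FLS1 kept its direction in all 20 fits, which its non-overlapping groups made likely in advance where 1 library was left out. Each of the other 6 tested members, whose groups overlapped, changed sign in at least 1 fit. LDOX was at 0.07 with DESeq2 and at 0.00 with the replicate block and the length trend removed. With 1 library left out, its log2 fold change lay between -0.74 and 0.60, and with the length trend also removed it was 0.56 without atrx-1 library 1, 0.20 without atrx-1 library 2, 0.66 without WT library 1 and 0.20 without WT library 2. CHS lay between -0.40 and 0.12 with 1 library left out, and with the length trend also removed it was 0.03 without atrx-1 library 1 and 0.08 without atrx-1 library 2. UGT78D2 lay between -0.13 and 0.85 with 1 library left out, and was -0.19 without WT library 1 and the length trend. With both steps CHI was 0.01 without atrx-1 library 3, F3H 0.02 without WT library 3 and DFR 0.01 without atrx-1 library 1. No such value of a member had an adjusted p under 0.05.

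Calls over all features, 16 and all lower, depended on the processing. They were 210 with DESeq2 (43 higher, 167 lower), 38 with RLE scaling (2 higher, 36 lower), 592 with no filter (192 higher, 400 lower) and 4 with the length trend removed (1 higher, 3 lower). The replicate block gave 34, all lower, and with the length trend removed it gave 1, lower. Leaving out 1 library gave between 0 and 378 calls (0 to 168 higher, 0 to 210 lower), 378 without WT library 1 and 0 without atrx-1 library 1 or 2, where 1575 and 1733 features had an unadjusted p under 0.05. With the length trend also removed it gave between 0 and 78 (0 to 13 higher, 0 to 71 lower), with 78 (7 higher, 71 lower) without WT library 3 and 13 higher and 9 lower without WT library 1. Among the other pathway genes 0 or 1 passed. The cause was not tested. Same-numbered libraries of both genotypes did not deviate together (correlations of 0.06, 0.06 and -0.08 over 13819 features). Differently numbered libraries had correlations between -0.13 and 0.09. Such values cannot decide whether the samples were paired by design, which no label states. The replicate block left FLS1 at -0.91 (edgeR adjusted p = 0.188). Member levels moved by 0.993 to 1.01 times with RLE scaling and by 2.49 to 2.5 times when only nuclear counts were scaled. Depth limited MYB12, MYB111 and CYP75B1, with 28, 8 and 53 reads in total.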
